A study of Mus musculus with 6 samples.

Results

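The 10 genes described here, Bin1, Picalm, Clu, Abca7, Sorl1, Cd2ap, Ptk2b, Epha1, Cass4 and Rin3, are the mouse counterparts of genes at human Alzheimer disease risk loci that act in endocytosis, lipid handling or signalling at the cell surface. They were taken by symbol from the deposited gene table, where each had 1 row among 55414 genes. All 10 passed the filter on low counts, which kept 17739 genes. RNA was taken from brain microglia, the macrophages that live in brain tissue, of C57BL/6 mice aged 10 months. Of the 6 libraries, 3 carried the genotype label Selk-/-, a knockout of the selenoprotein gene Selenok, and 3 were wild type (WT). Replicate 3 of each group has a title with 2 numbers, and no label says whether it pools animals. Nothing in the labels says that the libraries came from separate animals, so p-values measure the spread between libraries, which may be partly technical.

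Endocytosis carries receptors, lipoproteins and amyloid from the cell surface into the cell. PICALM recruits clathrin to the membrane, BIN1 bends membranes, CD2AP links them to actin, and RIN3 activates the early endosomal GTPase RAB5. SORL1 returns cargo from endosomes, where amyloid precursor protein can be cleaved, and CLU and ABCA7 act in lipoprotein and phospholipid transport. PTK2B, CASS4 and EPHA1 belong to adhesion and cell contact signalling. In microglia the human risk variants of BIN1 and PICALM are known to lie in regulatory elements of these cells.

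Total counts per library were 21112082 to 27541487 in those labelled Selk-/- and 26694358 to 28123871 in WT, so 3 counts correspond to 0.106 to 0.142 CPM (counts-per-million, relative to the TMM-scaled library total). Selenok itself had 112, 108 and 109 CPM in the libraries labelled Selk-/-, against 112, 125 and 120 CPM in WT. Its gene total therefore does not check the genotype label, and every direction given here is between libraries as labelled. Summed markers of microglia were 19335 to 20169 CPM in the libraries labelled Selk-/- and 23370 to 23581 CPM in WT, and all 10 markers, such as P2ry12 and Tmem119, were detected. Markers of other cells were present too: endothelial markers summed to 4070 to 5541 CPM in the libraries labelled Selk-/- and 3504 to 4361 CPM in WT. Those of choroid plexus and ependyma, mostly Ttr, summed to 2365 to 3205 CPM in the libraries labelled Selk-/- and 2219 to 3587 CPM in WT. Of 11 marker lists, 3 had sums that did not overlap between the groups, those of microglia, border macrophages and B cells, all lower in the libraries labelled Selk-/-. Small nucleolar RNA genes held 327 CPM of the unscaled total in replicate 1 labelled Selk-/-, 46.0 and 54.9 CPM in replicates 2 and 3, and 318 to 324 CPM in WT. Longer transcripts were also relatively higher in those replicates 2 and 3: a gene's log2 CPM relative to its mean over the libraries changed by 0.044 and 0.059 per doubling of length, against -0.014 in replicate 1 and -0.046 to -0.016 in WT.

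No member passed the edgeR threshold of an adjusted p under 0.05: the count was 0 of 10, and 0% of all genes tested passed. With DESeq2, the tool named in the labels, 1 of the 9 members that received an adjusted p was called, against 7.7% of genes. That member was Picalm. At an unadjusted edgeR p under 0.05 there were 3 members, Picalm and Rin3 higher and Cass4 lower in the libraries labelled Selk-/-, against 19.1% of genes. Groups did not overlap in CPM for 4 members, Picalm, Rin3 and Abca7 higher and Bin1 lower, against 26.2% of genes. With 10 members these shares, 3 and 4 of 10, are not far from the background. None met the submitters' rule of at least a 2-fold change and an unadjusted p under 0.05, which 1.18% of genes met in the edgeR fit.

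**Figure D1:**
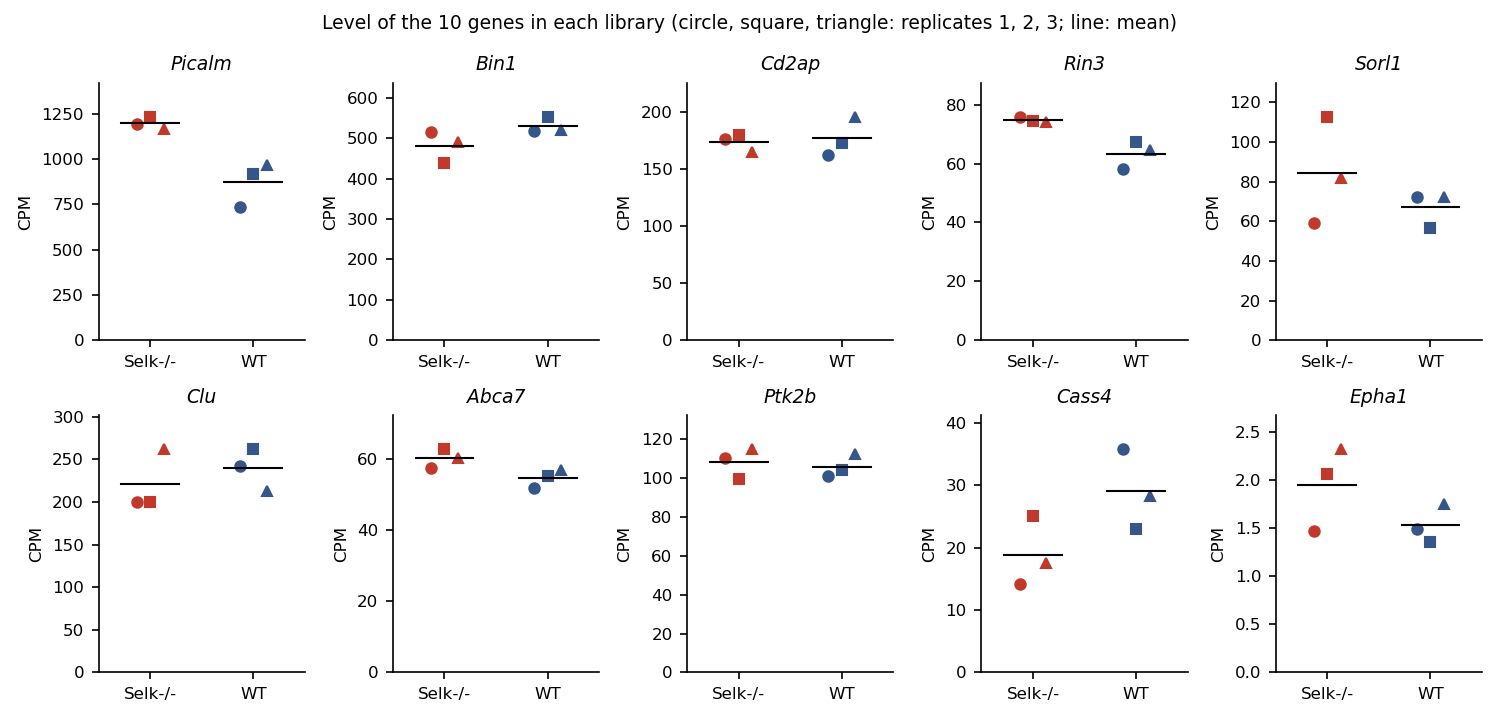
CPM of each of the 10 genes in the 3 libraries labelled Selk-/- (red, left) and the 3 WT libraries (blue, right), each axis from 0, with the group mean as a line. Picalm, Rin3 and Abca7 lay above WT in every library labelled Selk-/-, Bin1 lay below, and the other 6 overlapped.

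Of the 3 members grouped here with the coated pit machinery, Picalm, Bin1 and Cd2ap, Picalm had the largest log2 fold change in size. Picalm (ENSMUSG00000039361, chromosome 7, 89779421 to 89862673, plus strand, as the deposited table gives it) had 1195, 1235 and 1165 CPM in the libraries labelled Selk-/-, against 738, 917 and 967 CPM in WT. The lowest library labelled Selk-/- lay above the highest WT library. The means were 1198 ± 35.2 CPM in the libraries labelled Selk-/- and 874 ± 120 CPM in WT (SD, n = 3 each), a 1.37-fold difference. On the log2 scale the fold change was 0.46 with a 95% interval of 0.21 to 0.70 (SE 0.108), an edgeR adjusted p of 0.114 and a DESeq2 adjusted p of 0.0022. A fit blocked on snoRNA level sets replicates 2 and 3 labelled Selk-/- apart from the other 4 libraries. No WT library shares their block, so the fold change of this fit compares replicate 1 labelled Selk-/- alone with WT. For Picalm that value was 0.45, which is no check on the difference between the groups. With the trend on transcript length removed, the log2 fold change of Picalm was 0.46 (limma adjusted p = 0.110). In a bulk library, fewer cells of a type and less RNA per cell cannot be told apart.

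Within the span of Picalm, on the same strand, the table lists 4 short unconfirmed gene models, Gm45220, Gm45221, Gm45222 and Gm45223. They had 4.14 to 16.2 CPM in the libraries labelled Selk-/- and 3.25 to 9.92 CPM in WT, so they carry little beside Picalm. Gm45222 had 8.83, 16.2 and 12.5 CPM in the libraries labelled Selk-/-, against 6.71, 5.71 and 9.92 CPM in WT, and a log2 fold change of 0.75 with an edgeR adjusted p of 0.221 (SE 0.278). The log2 fold change was 0.34 for Gm45220, 0.50 for Gm45221 and 0.54 for Gm45223. Of these models only Gm45223 had groups without overlap in CPM (edgeR adjusted p = 0.181). The sources used here do not say how reads shared with Picalm were assigned.

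The ratio of counts to FPKM (the authors' length-normalised level) gives the transcript length that the authors' quantification implies, once each library's overall offset is removed. For Picalm it was 4082, 4120 and 4080 bases in the libraries labelled Selk-/-, against 3890, 3941 and 3982 bases in WT, so these values did not overlap. The same held for Bin1, at 2111 to 2143 bases in the libraries labelled Selk-/- and 2147 to 2174 bases in WT, and for Clu, at 2093 to 2103 bases in the libraries labelled Selk-/- and 2072 to 2084 bases in WT. These are 3 of 10 members, against 11.8% of the 17478 genes with such a value. The log2 differences were 0.06 for Picalm, -0.02 for Bin1 and 0.01 for Clu, and no test was made of them. The deposited table holds no values for single transcripts, so which isoforms differ cannot be read from it.

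The promoter of Picalm is shown because this gene had the highest log2 fold change of the 10. The 229 bases before the first annotated base (RefSeq, GRCm38.p6, chr7:90129963-90130191, plus strand) read as follows, with the match to TCACGTGA in capitals.
Picalm: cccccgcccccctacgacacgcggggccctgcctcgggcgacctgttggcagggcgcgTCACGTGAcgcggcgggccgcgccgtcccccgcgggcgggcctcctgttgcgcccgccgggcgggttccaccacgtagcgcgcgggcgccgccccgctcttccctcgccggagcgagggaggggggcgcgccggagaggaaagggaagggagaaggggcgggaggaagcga
TCACGTGA is the core of the CLEAR element, which the lysosomal regulator TFEB binds. It reads the same on both strands, contains the E-box CACGTG, and was chosen after the sequence was read. It starts at base 59 of the window, and 0.618% of 32851 mouse promoter entries hold it in their first 229 bases. The full 300-base entry, which runs past the start, holds 2 matches. A promoter entry was found for 7 of the 10 members, and no entry of the other 6 held this motif. Because of the way the motif was chosen, these shares are a description with no test. Binding of TFEB or of any other factor to this match, and a part of it in the Picalm value, were not tested.

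Bin1 (ENSMUSG00000024381, chromosome 18, 32510283 to 32568790, plus strand) had 516, 438 and 490 CPM in the libraries labelled Selk-/-, against 517, 554 and 521 CPM in WT. The groups were separated by about 1 CPM, between replicate 1 labelled Selk-/- and WT replicate 1. The means were 481 ± 39.6 CPM in the libraries labelled Selk-/- and 531 ± 20.2 CPM in WT (SD, n = 3 each). In edgeR the log2 fold change was -0.14 with an adjusted p of 0.396 (95% interval -0.33 to 0.05, SE 0.083). It was -0.04 in the snoRNA-blocked fit (replicate 1 labelled Selk-/- alone against WT) and -0.06 without replicate 2 labelled Selk-/-. The summed microglia markers, given above, were lower in the same 3 libraries. Within the groups their order differed from that of Bin1. They were lowest in replicate 2 labelled Selk-/-, as was Bin1, but also lowest in WT replicate 2, the WT library highest in Bin1. Their part in the Bin1 value was not tested.

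The counts of Picalm and Bin1, both grouped here with endocytosis, were also set side by side within each library, which needs no scaling between libraries. The ratio was chosen after the values of both genes were seen, so it is a description with no test. The ratio of Picalm to Bin1 counts was 2.32, 2.82 and 2.38 in the libraries labelled Selk-/-, against 1.43, 1.66 and 1.86 in WT. It was 2.504 ± 0.275 in the libraries labelled Selk-/- and 1.65 ± 0.215 in WT (SD, n = 3 each), a difference of 0.61 on the log2 scale.

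Cd2ap (ENSMUSG00000061665, chromosome 17, 43103842 to 43187556, minus strand), the adaptor to actin, had 176, 180 and 165 CPM in the libraries labelled Selk-/-, against 162, 173 and 196 CPM in WT. The 2 groups overlapped, and the libraries labelled Selk-/- lay inside the WT range. The fitted log2 fold change was -0.03 with an edgeR adjusted p of 0.892 (95% interval -0.23 to 0.18, SE 0.087).

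Of the endosomal members, Rin3 showed the least spread. Rin3 (ENSMUSG00000044456, chromosome 12, 102249307 to 102357114, plus strand) had 76.0, 74.3 and 74.2 CPM in the libraries labelled Selk-/-, against 58.3, 67.3 and 64.7 CPM in WT. Every library labelled Selk-/- lay above WT, at 74.8 ± 1.01 CPM, against 63.4 ± 4.62 CPM in WT (SD, n = 3 each). Its log2 fold change was 0.24 with a 95% interval of 0.07 to 0.40 (SE 0.072), a 1.18-fold difference, with an edgeR adjusted p of 0.154 and a DESeq2 adjusted p of 0.108. It was 0.26 in the snoRNA-blocked fit (replicate 1 labelled Selk-/- alone against WT) and 0.23 with the length trend removed.

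Sorl1 (ENSMUSG00000049313, chromosome 9, 41876016 to 42035593, minus strand), the sorting receptor, had 59.2, 113 and 81.6 CPM in the libraries labelled Selk-/-, against 72.1, 56.7 and 72.2 CPM in WT. Replicate 2 labelled Selk-/- was the highest and replicate 1 lay within the WT range. The log2 fold change was 0.33 with an edgeR adjusted p of 0.488 (95% interval -0.25 to 0.92, SE 0.239). It was 0.09 without replicate 2 labelled Selk-/-, 0.55 without replicate 1 labelled Selk-/- (edgeR adjusted p = 0.197) and 0.17 with the length trend removed. In the snoRNA-blocked fit (replicate 1 labelled Selk-/- alone against WT) it was -0.18, the opposite sign. Replicate 2 also held the highest sum of neutrophil markers, 6017 CPM, against 422 and 1094 CPM in replicates 1 and 3 and 495 to 1204 CPM in WT. All 10 neutrophil markers were detected, S100a9 at 1966 CPM and Ly6g at 23.5 CPM in replicate 2. Sorl1 followed the same order as these markers within the libraries labelled Selk-/- and within WT. WT replicates 1 and 3 were within 1 CPM in Sorl1. In the libraries labelled Selk-/- this order was not particular to neutrophil markers. Sums of border macrophage, B cell, and choroid plexus and ependyma markers had it there too. B cell markers were also lowest in WT replicate 2, at 193 CPM, against 244 and 221 CPM in WT replicates 1 and 3. The part of any of these cells in the Sorl1 value was not tested.

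**Figure D2:**
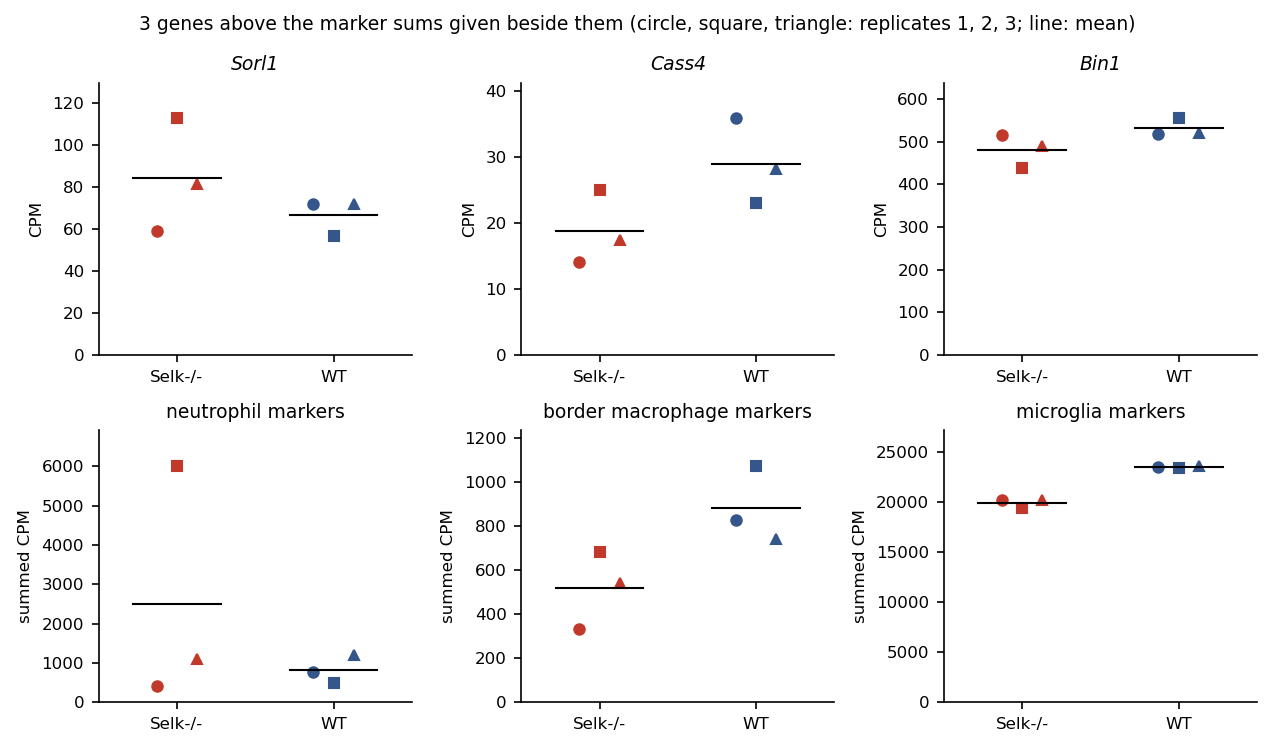
CPM of Sorl1, Cass4 and Bin1 (top) and the summed CPM of neutrophil, border macrophage and microglia markers (bottom), by library, with libraries labelled Selk-/- in red at left and WT in blue at right, and the group mean as a line. Replicate 2 labelled Selk-/- (square) is highest for Sorl1 and for neutrophil markers, at 113 and 6017 CPM. Among the libraries labelled Selk-/- it is also highest for border macrophage markers. WT replicate 2 is the highest WT library in border macrophage markers and the lowest in Cass4. It is also the lowest WT library in microglia markers and the highest in Bin1. B cell markers, which followed the order of Cass4 in both groups, are not shown.

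Of the lipid transport members, Clu was among the most abundant genes and varied between libraries in both groups. Clu (ENSMUSG00000022037, chromosome 14, 66205932 to 66218996, plus strand) encodes clusterin, an extracellular chaperone and apolipoprotein made in brain largely by astrocytes and choroid plexus. It had 201, 200 and 262 CPM in the libraries labelled Selk-/-, against 243, 263 and 213 CPM in WT. The groups overlapped across nearly their whole range, and the log2 fold change was -0.12 with an edgeR adjusted p of 0.651 (95% interval -0.42 to 0.18, SE 0.129). Leaving out 1 library gave -0.24 (without replicate 3 labelled Selk-/-) to -0.03 (without replicate 2 labelled Selk-/-), also -0.04 without replicate 1 labelled Selk-/- or without WT replicate 2, and -0.18 without WT replicate 3. It was -0.32 without both libraries titled with 2 numbers (edgeR adjusted p = 0.281). In the snoRNA-blocked fit (replicate 1 labelled Selk-/- alone against WT) it was -0.26. Astrocyte markers summed to 422, 366 and 455 CPM in the libraries labelled Selk-/-, against 561, 403 and 362 CPM in WT. In both groups the library lowest in Clu was also lowest in astrocyte markers, with Clu within 1 CPM between replicates 1 and 2 labelled Selk-/-. Choroid plexus and ependyma markers, at 2552, 3587 and 2219 CPM in WT, followed the order of Clu there. In the libraries labelled Selk-/- they summed to 2365, 3205 and 3174 CPM, and were highest in replicate 2, the lowest in Clu. The part of either kind of cell in the Clu value was not tested.

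Abca7 (ENSMUSG00000035722, chromosome 10, 79832328 to 79851406, plus strand), a phospholipid transporter, had 57.5, 62.8 and 60.2 CPM in the libraries labelled Selk-/-, against 51.7, 55.1 and 56.7 CPM in WT. The groups did not overlap, but the nearest libraries, replicate 1 labelled Selk-/- and WT replicate 3, were within 1 CPM of each other. The fold change on the log2 scale was 0.14 with an edgeR adjusted p of 0.309 (95% interval -0.02 to 0.30, SE 0.069). It was 0.08 in the snoRNA-blocked fit (replicate 1 labelled Selk-/- alone against WT) and 0.07 with the length trend removed.

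The signalling members included the gene with the lowest log2 fold change of the 10, Cass4, a scaffold of the CAS family at focal adhesions. Cass4 (ENSMUSG00000074570, chromosome 2, 172235714 to 172275677, plus strand) had 14.1, 25.1 and 17.5 CPM in the libraries labelled Selk-/-, against 35.9, 23.0 and 28.3 CPM in WT. The groups overlapped through replicate 2 labelled Selk-/- and WT replicate 2. The means were 18.9 ± 5.60 CPM in the libraries labelled Selk-/- and 29.1 ± 6.46 CPM in WT (SD, n = 3 each), a ratio of 0.65. In the edgeR fit the log2 fold change was -0.62 with a 95% interval of -1.21 to -0.03 (SE 0.247), an edgeR adjusted p of 0.245 and a DESeq2 adjusted p of 0.064. It was -1.04 in the snoRNA-blocked fit (replicate 1 labelled Selk-/- alone against WT). Leaving out 1 library gave -0.87 (without replicate 2 labelled Selk-/-) to -0.44 (without replicate 1 labelled Selk-/-, and also without WT replicate 1).

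Markers of border macrophages, which line the vessels and membranes of the brain, followed the order of Cass4 in the libraries labelled Selk-/-. They summed to 336, 683 and 544 CPM there, against 828, 1076 and 744 CPM in WT, where the library highest in these markers was the lowest in Cass4. All 10 markers of the list were detected, and Mrc1 had 145, 301 and 232 CPM in the libraries labelled Selk-/-, against 339, 430 and 306 CPM in WT. Sums of neutrophil, B cell, and choroid plexus and ependyma markers had the order of Cass4 in the libraries labelled Selk-/- too. Of all these lists, only that of B cells also had it in WT. B cell markers summed to 153, 177 and 166 CPM in the libraries labelled Selk-/-, against 244, 193 and 221 CPM in WT. The part of any of these cells in the Cass4 value was not tested.

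The promoter of Cass4 is shown as that of the member with the lowest log2 fold change. The 250 bases before its start (RefSeq, GRCm38.p6, chr2:172393394-172393643, plus strand) hold 1 match to GGAAGT, in capitals, a core that ETS factors such as PU.1, the microglial lineage factor, bind.
Cass4: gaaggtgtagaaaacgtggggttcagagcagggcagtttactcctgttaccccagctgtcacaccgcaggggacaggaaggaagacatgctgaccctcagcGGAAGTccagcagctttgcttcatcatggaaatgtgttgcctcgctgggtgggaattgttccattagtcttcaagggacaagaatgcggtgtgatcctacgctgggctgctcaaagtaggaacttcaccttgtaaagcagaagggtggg
The match starts at base 102, both strands were searched, and it overlaps no TCACGTGA. Of 32851 promoter entries, 19.7% hold GGAAGT in their first 250 bases. Among the other 6 members with an entry, 1 of the promoters of Sorl1, whose log2 fold change was 0.33, also holds it. Spi1, which encodes PU.1, had 150 ± 3.20 CPM in the libraries labelled Selk-/- and 201 ± 17.8 CPM in WT (n = 3 each, SD), which is a log2 difference of -0.42 (edgeR adjusted p = 0.105, DESeq2 adjusted p = 5.2e-04). Binding of PU.1 to this match, and a part of it in the Cass4 value, were not tested.

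Ptk2b (ENSMUSG00000059456, chromosome 14, 66390706 to 66518501, minus strand), a calcium-responsive tyrosine kinase related to focal adhesion kinase, had 110, 99.3 and 115 CPM in the libraries labelled Selk-/-, against 101, 104 and 113 CPM in WT. The groups overlapped and the difference was 0.03 on the log2 scale, with an edgeR adjusted p of 0.865 (95% interval -0.15 to 0.21, SE 0.079). Clu and Ptk2b lie near each other on chromosome 14, which also carries Selenok. Epha1 (ENSMUSG00000029859, chromosome 6, 42335421 to 42350202, minus strand), an ephrin receptor, had few reads, with 40, 53 and 49 counts in the libraries labelled Selk-/-, against 42, 36 and 49 counts in WT. These are 1.47, 2.06 and 2.33 CPM in the libraries labelled Selk-/-, against 1.49, 1.36 and 1.75 CPM in WT. The groups overlapped and the log2 fold change was 0.34 with an edgeR adjusted p of 0.487 (95% interval -0.24 to 0.92, SE 0.249), 0.52 without replicate 1 labelled Selk-/- and 0.21 without replicate 3. Epha1 overlaps Zyx on the opposite strand, which had 90.1 to 106 CPM over the 6 libraries, and no source used here gives the strand setting of the counting, so the count of Epha1 is uncertain.

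**Figure D3:**
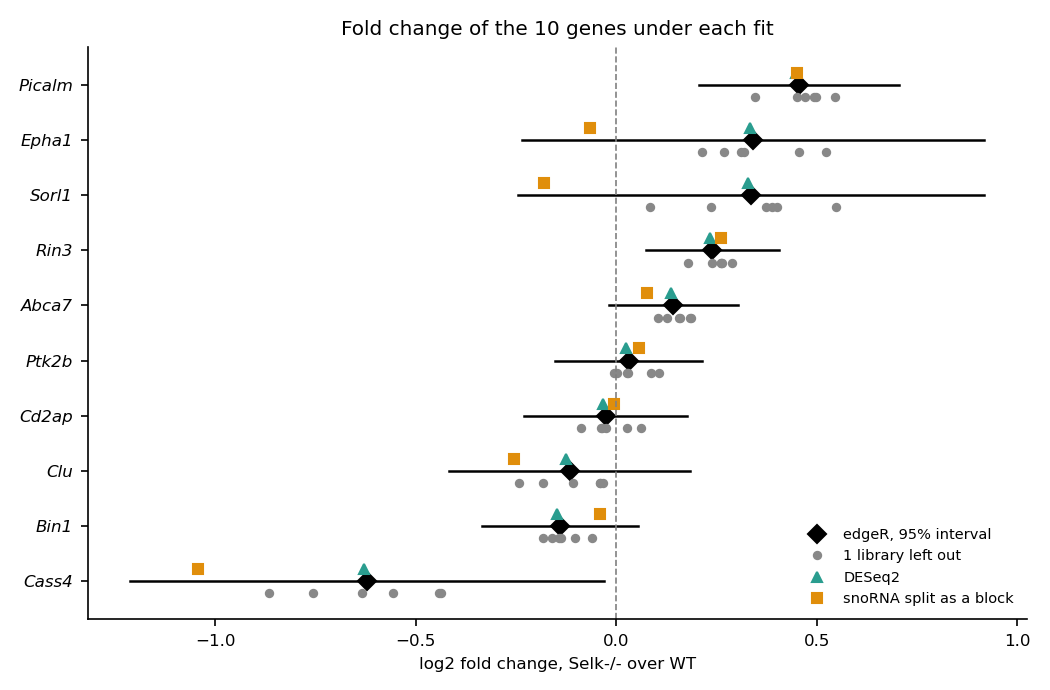
Log2 fold change of the 10 genes, libraries labelled Selk-/- over WT, with the edgeR estimate and its 95% interval (diamond and line), DESeq2 (triangle), the snoRNA-blocked fit (square) and each fit with 1 library left out (grey dots). The estimates of Picalm, Rin3 and Abca7 stayed above 0 in all of these, and those of Bin1, Clu and Cass4 stayed below 0. Among them, the edgeR intervals of Picalm, Rin3 and Cass4 did not include 0. With 1 library left out Picalm was at 0.35 to 0.55 and Rin3 at 0.18 to 0.29. The square compares replicate 1 labelled Selk-/- alone with WT, and it lay below 0 for Sorl1 and Epha1.

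Set in order by FPKM, which allows genes to be compared per length, the members covered a wide range of levels. In the libraries labelled Selk-/- Picalm was the highest, at 290 ± 5.62 FPKM, followed by Bin1 at 224 ± 17.3 FPKM and Clu at 104 ± 17.7 FPKM (SD, n = 3 each). In WT Bin1 came first, at 246 ± 7.36 FPKM, then Picalm at 222 ± 24.9 FPKM and Clu at 116 ± 12.1 FPKM (SD, n = 3 each). The ranges of Picalm and Bin1 were apart in the libraries labelled Selk-/- (285 to 296 and 205 to 239 FPKM) and overlapped in WT (194 to 242 and 239 to 254 FPKM). Cd2ap, Ptk2b and Rin3 came next in both groups, each apart from its neighbours, at 28.5, 23.8 and 16.7 FPKM in the libraries labelled Selk-/- and 29.5, 23.7 and 14.3 FPKM in WT. Abca7 (7.28 to 7.92 FPKM), Sorl1 (4.71 to 8.93 FPKM) and Cass4 (3.62 to 6.17 FPKM) followed in the libraries labelled Selk-/-, where Sorl1 overlapped both others. In WT the order of these was Cass4 (5.77 to 9.23 FPKM), Abca7 (6.76 to 7.23 FPKM) and Sorl1 (4.49 to 6.05 FPKM), with Cass4 overlapping both others. Epha1 was the lowest throughout, at 0.616 FPKM in the libraries labelled Selk-/- and 0.488 FPKM in WT.

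**Figure D4:**
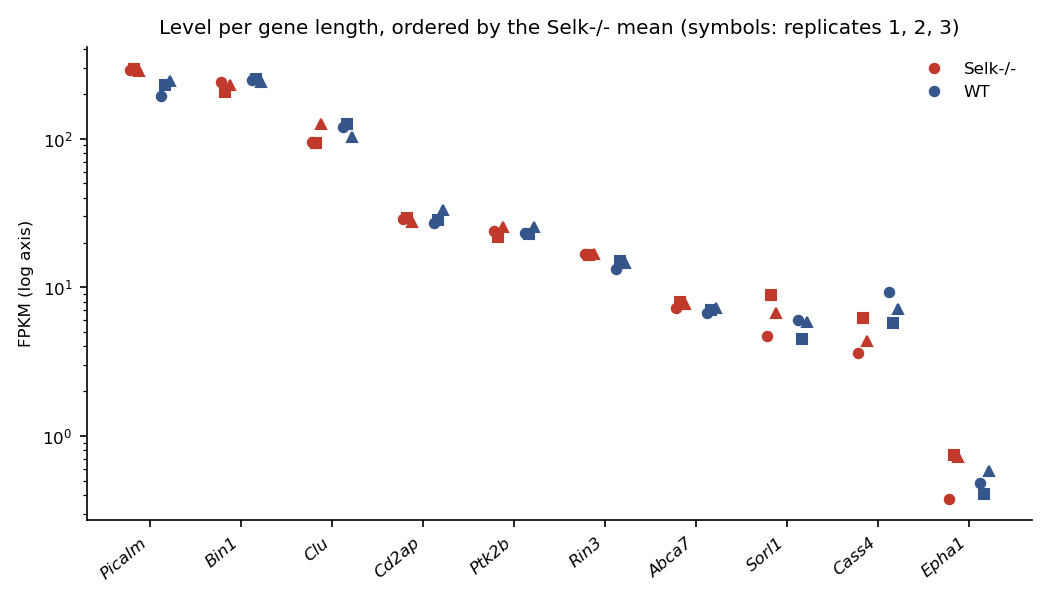
FPKM of the 10 genes on a log axis, ordered by the mean of the libraries labelled Selk-/- (red, left of each pair) with WT in blue (right). Picalm and Bin1 lead in both groups, with Picalm above Bin1 in each library labelled Selk-/- (285 to 296 against 205 to 239 FPKM).

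The closest relatives of the members were examined next. Bin2, the BIN family member of blood and microglial cells, had 157, 136 and 166 CPM in the libraries labelled Selk-/-, against 289, 221 and 279 CPM in WT. Every library labelled Selk-/- was below WT, with a log2 fold change of -0.78 (SE 0.122), a ratio of 0.58, an edgeR adjusted p of 0.105 and a DESeq2 adjusted p of 4e-07. Bin1 was thus 3.28, 3.22 and 2.96 times the Bin2 count in the libraries labelled Selk-/-, against 1.79, 2.502 and 1.86 times in WT. Bin3 was at 23.7 ± 2.26 CPM in the libraries labelled Selk-/- and 29.4 ± 1.96 CPM in WT (n = 3 each, SD), which is a log2 difference of -0.31. Amph, the neuronal amphiphysin, averaged 2.03 CPM in the libraries labelled Selk-/- and 0.916 CPM in WT, from 20 to 76 counts per library, a log2 fold change of 1.14 (SE 0.367, edgeR adjusted p = 0.169), without overlap. Of the other relatives, Epha2 had 104 ± 3.18 CPM in the libraries labelled Selk-/- and 86.3 ± 2.38 CPM in WT (n = 3 each, SD), which is a log2 difference of 0.27 (edgeR adjusted p = 0.108, DESeq2 adjusted p = 0.0203). The kinase Ptk2, a paralog of Ptk2b, had a log2 fold change of 0.04, Sh3kbp1, the paralog of Cd2ap, at 0.06, Nedd9 and Bcar1, the paralogs of Cass4, at -0.05 and -0.07, and Sort1, a relative of Sorl1, at -0.03. Among relatives of Rin3, Rinl was at -0.26 (edgeR adjusted p = 0.157) and Rin1 at 0.20 (edgeR adjusted p = 0.504), each without overlap. Over the 29 relatives tested, 15 were higher and 14 lower, with a median log2 fold change of 0.01. Of these 0 passed the edgeR threshold, and 7 (24.1%) had an unadjusted edgeR p under 0.05, against 19.1% of all genes tested. DESeq2 called 1 higher (Epha2) and 1 lower (Bin2), against 7.7% of the genes that received an adjusted p. Groups did not overlap in CPM for 7 of the 29, against 26.2% of all genes tested.

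Partner genes were counted by pathway, beside all genes tested. Of all genes tested 51.3% were lower, with a median log2 fold change of -0.01, and 0 passed the edgeR threshold. At an unadjusted edgeR p under 0.05 there were 3383 (19.1%). DESeq2 called 974, or 7.7% of the genes that received an adjusted p, and 26.2% of genes tested had groups without overlap in CPM. No partner gene passed the edgeR threshold in any list, and the values given for these genes are log2 fold changes unless named as CPM. The coated pit machinery had 14 of 32 members higher and 18 lower, a median of -0.03, and 4 lower by DESeq2. Its light chain Clta, which forms the clathrin coat with Cltc, had 253 ± 8.34 CPM in the libraries labelled Selk-/- and 325 ± 26.4 CPM in WT (n = 3 each, SD), which is a log2 difference of -0.36 (edgeR adjusted p = 0.109, DESeq2 adjusted p = 0.0022). The scaffold Itsn1 was at -0.39 (DESeq2 adjusted p = 0.0073), the heavy chain Cltc was at -0.04, the other light chain Cltb at 0.01 (unadjusted p = 0.87, edgeR), and the kinase Aak1, which phosphorylates the AP2 adaptor, at 0.23 (edgeR adjusted p = 0.133).

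In the retromer and sorting list, the partners of SORL1, 10 of 19 were higher and 9 lower, with a median of 0.01 and 0 DESeq2 calls. The retromer core subunit Vps35 had 260, 264 and 256 CPM in the libraries labelled Selk-/-, against 215, 242 and 234 CPM in WT (edgeR adjusted p = 0.244), and its partner Vps26b had 41.0, 43.7 and 45.5 CPM in the libraries labelled Selk-/-, against 54.8, 47.4 and 51.7 CPM in WT (edgeR adjusted p = 0.175). In the RAB5 list, the partners of RIN3, 11 of 20 were higher, with a median of 0.03, and DESeq2 called 1 higher and 1 lower. Rabep1, which encodes the RAB5 effector rabaptin 5, had 76.8, 81.1 and 77.3 CPM in the libraries labelled Selk-/-, against 55.0, 65.3 and 64.9 CPM in WT, without overlap. Its log2 fold change was 0.34 (SE 0.082, edgeR adjusted p = 0.115, DESeq2 adjusted p = 0.0203). The GTPase Rab5a was at 0.17 (edgeR adjusted p = 0.222) and Rab31, a relative of RAB5, at -0.29 (edgeR adjusted p = 0.131, DESeq2 adjusted p = 0.0262).

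In the lipoprotein list, 11 of 17 were higher, with a median of 0.08, and DESeq2 called 2 lower. The cholesterol exporter Abcg1 had 95.1 ± 3.33 CPM in the libraries labelled Selk-/- and 126 ± 7.46 CPM in WT (n = 3 each, SD), which is a log2 difference of -0.41 (edgeR adjusted p = 0.105, DESeq2 adjusted p = 2.4e-04), and Apoe was at -0.55 (edgeR adjusted p = 0.142, DESeq2 adjusted p = 0.0046). Abca1, a close relative of Abca7 that exports cholesterol, was at 0.23 (edgeR adjusted p = 0.181). In the focal adhesion list, 11 of 22 were higher, with a median of 0.01, and DESeq2 called 1 higher and 1 lower. The adaptor Crk, which binds CAS proteins such as CASS4, was at 0.41 (edgeR adjusted p = 0.109, DESeq2 adjusted p = 0.0030), and the actin capping subunit Capzb, whose complex CD2AP binds, at -0.36 (edgeR adjusted p = 0.109, DESeq2 adjusted p = 0.0024). Among the 8 ephrin ligands 6 were lower, with a median of -0.06 and 0 at an unadjusted p under 0.05.

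Of the other Alzheimer risk loci 17 of 21 were lower, with a median of -0.17, and DESeq2 called 4 lower and 1 higher. All 10 microglia markers (median -0.20) and all 10 border macrophage markers (median -0.91) were also lower in the libraries labelled Selk-/-, without overlap in their sums, and their part in this list was not tested. Trem2 was at -0.41 (edgeR adjusted p = 0.106, DESeq2 adjusted p = 2.6e-04), and Fermt2, an integrin activator, at 0.46 (edgeR adjusted p = 0.132, DESeq2 adjusted p = 0.0149). Of the 10 members described here 6 were higher and 4 lower, and no test of the difference between these lists was made.

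**Figure D5:**
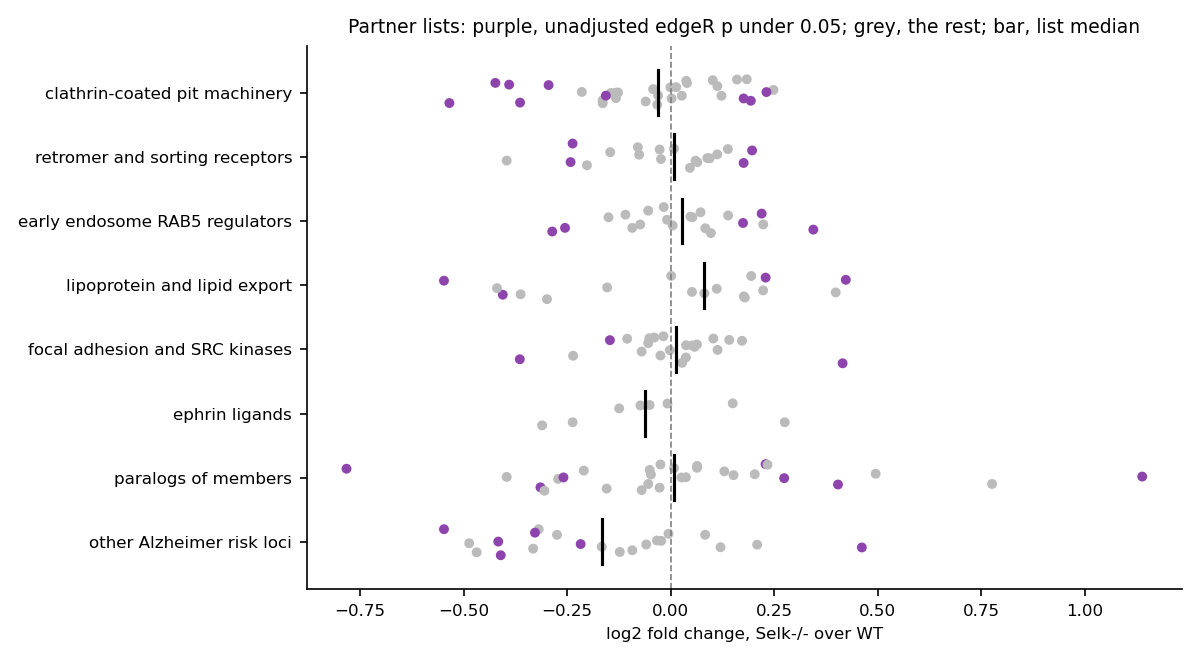
Log2 fold change, libraries labelled Selk-/- over WT, of each tested gene in 8 partner lists, with the list median as a bar and genes at an unadjusted edgeR p under 0.05 in purple. Medians ran from -0.17 for the other Alzheimer risk loci to 0.08 for lipoprotein and lipid export.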

How the data were processed

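RNA sequencing of adult microglia gave 6 libraries, 3 labelled Selk-/- and 3 WT. Hisat2 2.0.5 for alignment and stringtie 2.2.0 for quantification are what the authors used per the labels' protocols, while the submitters' processing notes name Bowtie 0.12.2. They deposited raw counts per gene, and FPKM values scaled by gene length and library size by the authors. The table names no build, and 0 of 10 members start where GRCm38.p6 places them, so its positions are printed as given. Tests on these counts used edgeR 4.0.16 under R 4.3.3 (TMM, filterByExpr, robust quasi-likelihood fits, two-sided, Benjamini-Hochberg over 17739 genes at 0.05, no covariate). DESeq2 1.42.0 and limma 3.58.1 on log2 FPKM were alternatives, as was a block for libraries under 100 CPM of snoRNA genes, which held no WT library. Standard errors derive from the F statistic. The fits were tested on simulated data. Members, gene lists and tests were chosen with earlier results of these data known. Named partners are the 2 most abundant of each list by FPKM and up to 2 per direction with the smallest p under 0.05 and a mean of at least 1 CPM, and relatives of members. Cltb is outside this rule and is named beside Clta. Some genes under this rule are not printed. Among these are abundant genes with small log2 fold changes, such as Snx5 (0.06), Rab7 (-0.07), Rab5c (-0.05), Pltp (0.001) and Efnb1 (-0.01). Lrp8 of the lipoprotein list, at 0.42 (edgeR adjusted p = 0.167), is also among them. Promoter sequences come from RefSeq (GRCm38.p6).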

Additional observations from a re-analysis of the deposited data

How the results depend on the processing

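Alternatives were DESeq2 size factors, scaling by library size alone, testing unfiltered genes, a floor of 10 CPM in 3 libraries, the DESeq2 test, limma on log2(FPKM + 1), with and without a filter, or on log2(FPKM + 0.1), each library left out, both libraries titled with 2 numbers left out, and the snoRNA split as a block. Removing the length trend was added after seeing the data. Of the 10 members 0 passed in edgeR and 1, Picalm, in DESeq2. No other alternative called a member. All genes past the threshold numbered 0, but 974 with DESeq2 and 92 with at least 10 CPM, where fewer genes were tested, and 0 to 59 when a library was left out, the 59 when replicate 1 labelled Selk-/- was omitted and 1 when replicate 2 labelled Selk-/- was. Marker lists without overlap numbered 3 of 11, 5 without the libraries titled with 2 numbers and 3 to 5 when a library was left out (5 without replicate 3 labelled Selk-/-). The cause of these differences was not tested. Signs changed for Sorl1 (-0.18) and Epha1 (-0.065) with the block, which compares replicate 1 labelled Selk-/- alone with WT. They also changed for Cd2ap without the libraries titled with 2 numbers (0.10), without replicate 3 labelled Selk-/- (0.026) or without WT replicate 3 (0.063), and for Ptk2b without WT replicate 1 (-0.0055). Leaving out single libraries gave -0.088 to 0.063 for Cd2ap and -0.0055 to 0.11 for Ptk2b. The other 6 members kept their sign under every alternative, Picalm at 0.35 to 0.57, Rin3 at 0.18 to 0.29 and Cass4 at -1.04 to -0.44. The log2 difference in the Picalm to Bin1 ratio was 0.51 to 0.70 when a library was left out. Epha1, at 36 to 53 counts, had the fewest reads of the 10. No paired analysis was possible because the titles of the 2 groups share only 1 number where a title holds a single number.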
